A study of Homo sapiens with 4 samples.

Results

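The aldo-keto reductases of family AKR1 were examined in RCM-1 cells, a human line from a well-differentiated rectal cancer, under methylthioacetic acid (MTA). The genes considered were AKR1A1, AKR1B1, AKR1B10, AKR1C1, AKR1C2 and AKR1C3, and their probe sets were chosen by gene symbol in the platform annotation. Of these 6 genes, 4 had at least 1 probe set, out of 21357 genes named on the array. AKR1A1 and AKR1B1 were matched to no probe set in the annotation used and are not analysed here. Probe sets that read them may stand on the array without a name in that annotation, so statements on AKR1 genes below do not cover these 2. AKR1C1 was named by 6 probe sets, AKR1C2 by 4, AKR1C3 by 1 and AKR1B10 by 1, which makes 11 in all because 1 probe set carries both AKR1C1 and AKR1C2. The study asked how gene expression changes before MTA-treated cells lift from the plate into fluid-filled domes.

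Nearly confluent cells of 1 line were given 1 mM MTA for 0, 6, 12 or 18 h, and 1 array was hybridised for each time. The treated cultures were then moved to medium with the solvent, acetonitrile at 0.1%, until 24 h after MTA was added, so the 6, 12 and 18 h cultures had spent 18, 12 and 6 h without MTA. The 0 h array is labelled as the control, and whether its cells were also kept for 24 h is not stated in the sources used here. Hours under MTA and hours since its removal thus change together, and their effects cannot be told apart. With 1 culture a time there is no replicate spread and no test, and every ratio below shares the same 0 h array.

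AKR1 enzymes use NADPH to reduce aldehydes and ketones to alcohols, and thereby act on steroids, prostaglandins, retinal, sugars and the reactive aldehydes that arise from oxidised lipids. AKR1C1 inactivates progesterone, AKR1C2 inactivates the androgen dihydrotestosterone, and AKR1C3 makes testosterone and prostaglandin F. AKR1B10 reduces retinal and lipid aldehydes and is a known enzyme of intestinal epithelium. AKR1B1 is aldose reductase, which opens the polyol pathway, and AKR1A1 is aldehyde reductase. In human cells several of these genes, AKR1B10 and the AKR1C genes among them, are known targets of NRF2, the transcription factor of the antioxidant response.

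The AKR1C genes are close copies of each other. AKR1C1, AKR1C2 and AKR1C3 follow each other on chromosome 10 with no other protein-coding gene between them, and AKR1C8 and AKR1C4 come next. AKR1B1, AKR1B10 and AKR1B15 stand in the same way on chromosome 7. The 250 bases before the start of 3 AKR1C genes are printed here to show how alike the copies are (RefSeq, GRCh38.p14, 5′ to 3′ on the strand of the gene). Capitals mark the letters ATTGG, the reverse complement of a CCAAT box.
AKR1C1, chr10:4963165-4963414, plus strand: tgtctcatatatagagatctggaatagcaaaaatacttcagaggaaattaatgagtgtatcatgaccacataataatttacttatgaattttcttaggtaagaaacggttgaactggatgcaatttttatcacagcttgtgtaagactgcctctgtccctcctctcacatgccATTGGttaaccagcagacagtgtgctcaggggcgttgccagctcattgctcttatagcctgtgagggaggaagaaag
AKR1C2, chr10:5003858-5004107, minus strand: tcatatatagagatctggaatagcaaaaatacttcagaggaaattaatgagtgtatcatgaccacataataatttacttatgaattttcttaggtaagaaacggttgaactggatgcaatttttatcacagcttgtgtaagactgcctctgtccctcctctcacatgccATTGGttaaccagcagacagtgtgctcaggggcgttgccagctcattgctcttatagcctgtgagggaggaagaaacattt
AKR1C3, chr10:5048531-5048780, plus strand: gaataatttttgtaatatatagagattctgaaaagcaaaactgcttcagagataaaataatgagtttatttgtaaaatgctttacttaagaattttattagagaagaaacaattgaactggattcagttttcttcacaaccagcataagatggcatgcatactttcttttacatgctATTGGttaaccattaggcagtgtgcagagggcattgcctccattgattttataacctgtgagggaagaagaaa
Over 246 aligned bases, the AKR1C1 and AKR1C2 sequences differed at 1 position, an identity of 99.6%. The AKR1C3 sequence was 76.8% identical to that of AKR1C1 over 241 aligned bases and 77.2% identical to that of AKR1C2 over 237. ATTGG stood once in each of the 3 windows, starting 77, 81 and 73 bases before the gene start of AKR1C1, AKR1C2 and AKR1C3. On either strand, 32% of all 35116 promoter windows of this length held these letters. Neither the core of the antioxidant response element, TGACNNNGC, nor the AP-1 motif, TGACTCA, stood in these 3 windows on either strand, against 10.9% and 4.2% of all windows. These are matches of letters only, and elements farther from the start were not searched. A second AKR1C3 window, from another start site, and the windows of AKR1A1 and AKR1B1 also held neither motif.

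Of the 11 probe sets, 4 have the suffix _x_at and 2 the suffix _s_at, which mark probes that can also bind other transcripts. All 4 kept AKR1C1 and AKR1C2 probe sets are of the _x_at kind, so signals of the 2 genes are not independent and may contain each other's transcripts. The AKR1C3 probe set, 209160_at, has neither suffix. Signals are MAS5 intensities on a linear scale. Probe sets were kept if they were among the brightest by mean log2 signal over the 4 arrays, in the number that the study counted as detected, and the lowest mean signal kept was 34.0. By this filter 5 of the 11 AKR1 probe sets were kept, 2 of AKR1C1, 2 of AKR1C2 and 1 of AKR1C3, and 6 were too dim.

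The arrays themselves shifted. The kept probe sets had median log2 ratios to 0 h of 0.12, −0.28 and −0.45 at 6, 12 and 18 h, so a steady signal stands above the middle of the array at 18 h. The 12 probe sets for poly-A spike-in transcripts had mean log2 ratios of 0.20, 0.03 and −0.25. All 11 markers of colorectal epithelium that were examined had a kept probe set, while 1 of 12 markers of other cell types had one (PECAM1, with signals between 28.6 and 53.0). The epithelial markers had a median log2 ratio of −0.44 at 18 h, and CEACAM5, a surface glycoprotein of colon cancer cells, was the only one past 1.5, at −1.70.

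No AKR1 gene with a kept probe set differed from 0 h by a log2 ratio of more than 1.5 at any time. This threshold, which is that of the study, is 2.83-fold. Of all kept probe sets, 1.32% were past it at 6 h (1.28% higher, 0.0334% lower), 1.74% at 12 h (0.897% higher, 0.845% lower) and 4.06% at 18 h (0.954% higher, 3.11% lower), so among 5 AKR1 probe sets a count of 0 is close to what the array as a whole gives. The 5 kept AKR1 ratios lay between −0.56 and 0.39 over all 3 times. With each gene read by its brightest probe set, AKR1C1, AKR1C2 and AKR1C3 had medians of 0.15, −0.03 and −0.31 at 6, 12 and 18 h. For all 10505 genes that could be read in this way, the medians were 0.11, −0.28 and −0.47.

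**Figure D1:**
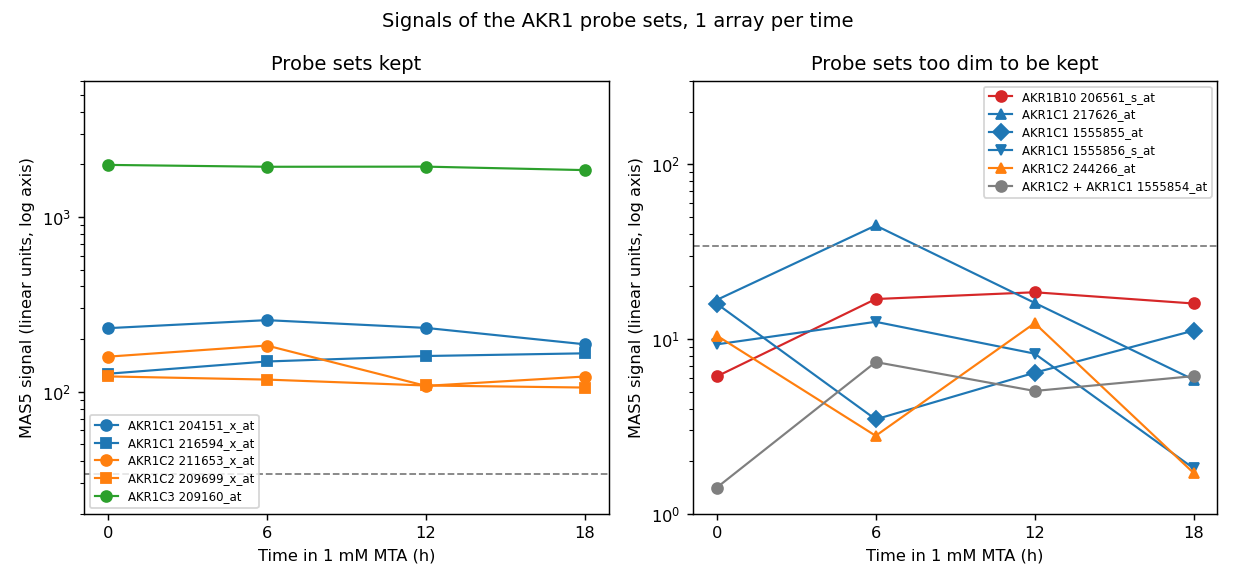
MAS5 signal (linear units on a log axis) of the AKR1 probe sets at 0, 6, 12 and 18 h of MTA, 1 point per array, with a dashed line at the lowest mean signal kept, 34.0. The AKR1C3 line on the left runs level between 1855 and 1986 units, the AKR1C1 and AKR1C2 lines stay between 106 and 257, and the dim probe sets on the right cross each other.

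AKR1C3, which makes testosterone and prostaglandin F, had the smallest range of signal among the 5 kept AKR1 probe sets with the deposited scaling. The signals of 209160_at were 1986, 1938, 1942 and 1855 at 0, 6, 12 and 18 h. All 4 arrays thus lay within a factor of 1.07 of each other. The log2 ratios to 0 h were −0.04, −0.03 and −0.10. Over the 4 arrays the log2 range was 0.10, and 31 kept probe sets (0.148%) had a smaller range. This steadiness belongs to the deposited scaling. After division by the trimmed mean the range was 0.54, and 48.8% of the kept probe sets had a smaller one. After median centring the range was 0.50 and this share was 44.5%, and after quantile normalization the range was 0.58 and the share 54.1%. With scaling to the poly-A controls the range was 0.39 and the share 23.1%.

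At 18 h the AKR1C3 ratio was 0.35 above the median of the kept probe sets, and 73.4% of them had a lower ratio. Among the 4191 brightest kept probe sets, to which it belongs, the median log2 ratio was −0.55 at 18 h and 2.15% were past 1.5. The sign at 18 h depended on the scaling, with −0.10 as deposited, 0.35 after median centring, 0.51 after quantile normalization, 0.42 after division by the trimmed mean and 0.16 relative to the poly-A controls. All of these values are small beside the threshold. For scale, where a gene had 2 or more kept probe sets, the ratios of its brightest pair differed with an SD of 0.48 at 18 h (4676 genes). This is a spread between probe sets on the same arrays, not between cultures.

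AKR1C1, which inactivates progesterone, gave different directions on its 2 kept probe sets. Probe set 204151_x_at had signals of 231.0, 256.7, 231.8 and 186.7 at 0, 6, 12 and 18 h. The highest signal was thus at 6 h and the lowest at 18 h. Its log2 ratios were 0.15, 0.01 and −0.31. Probe set 216594_x_at had 126.7, 148.9, 160.0 and 165.8, the lowest signal at 0 h and the highest at 18 h. Its log2 ratios were 0.23, 0.34 and 0.39. At 18 h the ratios of the 2 probe sets differed by 0.69, which is more than the SD of 0.48 between probe sets of a gene, after differences of 0.08 at 6 h and 0.33 at 12 h. No direction can be given for AKR1C1 at 18 h from these values.

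Relative to the rest of the array, 216594_x_at stood high. At 18 h 90.0% of the kept probe sets had a lower ratio than it, and at 12 h 87.4%. It was above 0 at 18 h under all 6 scalings, from 0.38 with a pseudocount to 0.90 after division by the trimmed mean. The ratio of 204151_x_at at 18 h ranged from −0.31 as deposited to 0.21 after division by the trimmed mean and was above 0 in 3 of 6 scalings. None of these values reached 1.5.

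AKR1C2, which inactivates dihydrotestosterone, had slightly lower signals at 18 h than at 0 h on both kept probe sets with the deposited scaling. Probe set 211653_x_at had signals of 158.7, 183.7, 107.9 and 122.1 at 0, 6, 12 and 18 h. The 12 h array was the lowest and the 6 h array the highest, a factor of 1.70 apart. The log2 ratios were 0.21, −0.56 and −0.38. Probe set 209699_x_at had 122.3, 117.3, 108.5 and 105.6, with log2 ratios of −0.06, −0.17 and −0.21, each array lower than the one before it, within a factor of 1.16. The 2 probe sets differed by 0.27 at 6 h, 0.38 at 12 h and 0.17 at 18 h, less than the SD between probe sets of a gene at each time (0.41, 0.42 and 0.48).

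The lower AKR1C2 signal at 18 h was no larger than the shift of the array. Relative to the median of the kept probe sets, 211653_x_at stood 0.07 higher and 209699_x_at 0.24 higher at 18 h. Both ratios turned positive at 18 h after median centring, quantile normalization or division by the trimmed mean, with 0.30 as the highest value. Relative to the poly-A controls they were −0.12 and 0.04. At 12 h the ratio of 211653_x_at was below 0 under all 6 scalings, between −0.58 and −0.23, while that of 209699_x_at lay between −0.20 and 0.15.

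**Figure D2:**
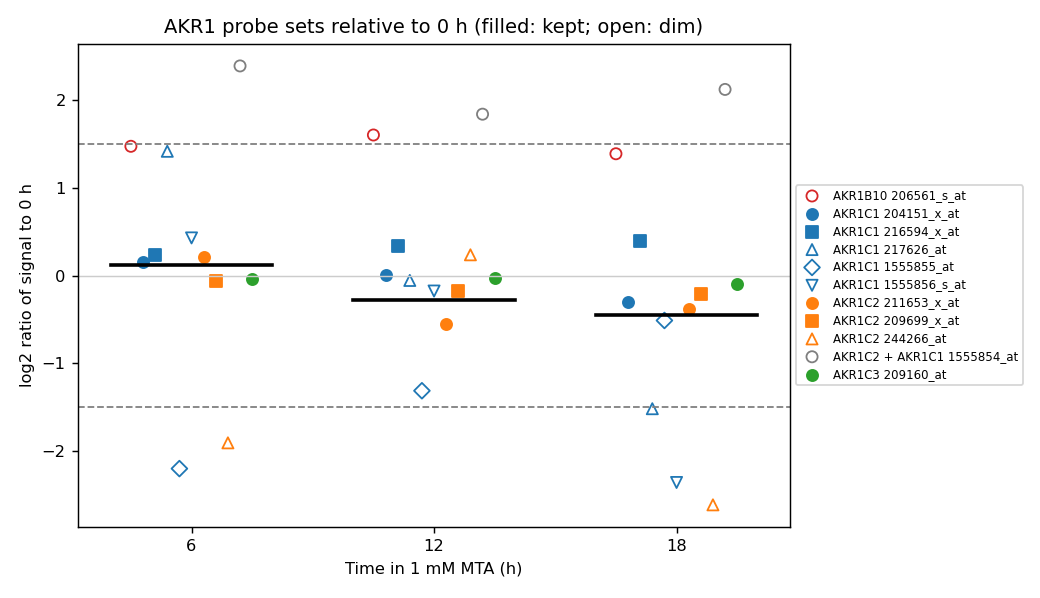
Log2 ratio of signal to 0 h for the 11 AKR1 probe sets at 6, 12 and 18 h (filled, kept; open, dim), with a bar at the median of the kept probe sets and dashed lines at 1.5 and −1.5. The filled points lie between −0.56 and 0.39, while the open points reach from −2.61 to 2.39.

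**Figure D3:**
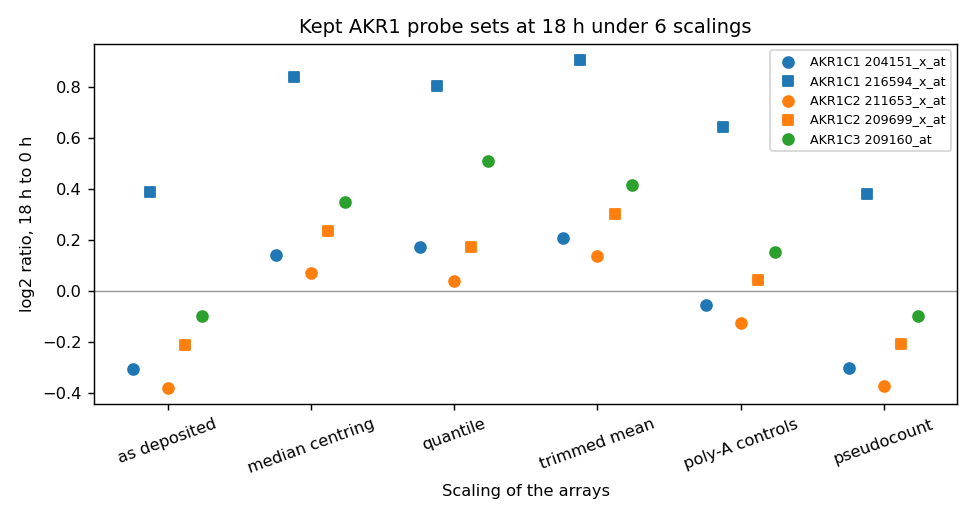
Log2 ratio of signal at 18 h to 0 h (y axis) for the 5 kept AKR1 probe sets under 6 scalings of the arrays (x axis), 1 point per probe set. Probe set 216594_x_at of AKR1C1 is above 0 throughout, and the other 4 are below 0 with the deposited scaling and above 0 after median centring.

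AKR1B10, the retinal and lipid aldehyde reductase, was read by a single dim probe set. The signals of 206561_s_at were 6.11, 17.0, 18.5 and 15.985 at 0, 6, 12 and 18 h. The 3 MTA arrays were alike and lay above the 0 h array, yet all 4 signals were below 34.0, the lowest mean signal kept. Its log2 ratios of 1.47, 1.60 and 1.39 put 12 h alone past 1.5. The ratio stayed above 1 under all 6 scalings at each time, between 1.07 and 1.92. It rests on 1 low reading at 0 h, which all 3 ratios share. Among probe sets that were too dim to be kept, 33.1% were past 1.5 at 6 h (20.4% higher, 12.7% lower), 33.6% at 12 h (17.9% higher, 15.7% lower) and 34.3% at 18 h (18.3% higher, 16% lower), so a ratio of this size is common among dim probe sets. No higher expression of AKR1B10 can be read from it.

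The other 5 dim probe sets, of AKR1C1 and AKR1C2, had large ratios without a direction common to all of them. Probe set 217626_at of AKR1C1 had signals of 16.8, 44.7, 16.1 and 5.86 at 0, 6, 12 and 18 h, and ratios of 1.42, −0.06 and −1.52. Probe set 1555855_at of AKR1C1 was highest at 0 h (15.9) and lowest at 6 h (3.47), with a log2 ratio of −0.51 at 18 h. Probe set 1555856_s_at of AKR1C1 had 1.82 at 18 h, against 9.33 at 0 h. Probe set 244266_at of AKR1C2 alternated, with 10.5, 2.79, 12.3 and 1.71. Probe set 1555854_at, which carries AKR1C1 and AKR1C2 together, had 1.41, 7.39, 5.05 and 6.14, with log2 ratios of 2.39, 1.84 and 2.12.

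All 6 dim AKR1 probe sets were past 1.5 at 1 or more of the 3 times, as were 60.3% of all dim probe sets. None of the 5 kept ones was, against 5.22% of all kept probe sets. At 18 h 3 of the dim ones were below −1.5 and 1 was above 1.5. Over all probe sets the SD of the log2 ratio at 18 h was 1.74 among those not kept and 0.64 among those kept. The brighter probe sets of AKR1C1 and AKR1C2 on the same arrays had smaller ratios than the dim ones, within 0.39 of 0 at 18 h. Below 0 at 18 h were 4 of the 6 dim AKR1 probe sets and 4 of the 5 kept ones. Of all genes, read by their brightest kept probe set, 78.3% were below 0. For all dim probe sets this share was not computed, so the count among the dim AKR1 probe sets has no background here.

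For each AKR1C gene, 161 or more of 10505 genes had a time course within a distance of 0.2. The distance used was the Euclidean one over the log2 ratios at 6, 12 and 18 h, with each gene read as above. Nearest to AKR1C3 were HTR4, a serotonin receptor (0.02), ARHGAP32 (0.03), and GAB1, a docking protein of growth factor receptors (0.05). Within a distance of 0.2 lay 161 genes. AKR1C1 had PLAAT3, a phospholipase (0.02), TFB1M, which methylates mitochondrial ribosomal RNA (0.03), and SH3GLB1, which shapes membranes in autophagy (0.03), with 529 genes within 0.2. AKR1C2 had SDCCAG8, a centrosome protein (0.04), SAMD4B, an RNA-binding protein (0.04), and CIAO3, of iron-sulphur cluster assembly (0.04), with 181 within 0.2.

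Of 11 other aldo-keto reductases listed, 4 had a kept probe set and none was past 1.5 at any time. At 18 h, 3.19% of all genes with a kept probe set were below −1.5 and 1.22% above 1.5. At 6 and 18 h the medians of these 4 genes were 0.35 and −0.31, beside 0.15 and −0.31 for the AKR1C genes, and the difference at 6 h was not tested. AKR7A3, which reduces aflatoxin dialdehyde, had 167.9 at 18 h, against 240.4 at 0 h, a ratio of −0.52. KCNAB2, a potassium channel subunit with an aldo-keto reductase fold, had −0.42.

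Of 81 kept genes that share a family, a regulator or substrates with the AKR1 enzymes, 2 were below −1.5 and 1 was above 1.5 at 18 h, shares close to the 3.19% and 1.22% of all genes. Of 25 NRF2 targets outside the AKR family, 19 had a kept probe set, with medians of 0.08, −0.25 and −0.76 at 6, 12 and 18 h, and 17 of the 19 had a ratio below 0 at 18 h, as did 78.3% of all genes. By brightest probe set, GCLM, a subunit of the enzyme that begins glutathione synthesis, was the only one past 1.5 at 18 h. Its signal there was 294.3, against 1053 at 0 h, a ratio of −1.84. The other 2 kept probe sets of GCLM had −1.10 and −1.04. ME1, also in this list, had −1.26 on its brightest probe set and −1.72, past the threshold, on another kept one. Among 6 genes of NRF2 itself and its control, KEAP1, which marks NRF2 for destruction, had −1.13 and MAFF, a partner protein, −0.82. Another kept probe set of MAFF had −1.09. AKR1C1, AKR1C2 and AKR1C3, at −0.31, −0.38 and −0.10, all lay above the median of the NRF2 targets. The difference was not tested.

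Of 16 kept carbonyl reductases of other families, DHRS2 alone was past 1.5. Its signals were 32.4, 100.6, 196.5 and 215.8 at 0, 6, 12 and 18 h, each higher than the one before, with a ratio of 2.74 at 18 h that starts from a reading below the lowest mean signal kept. Of 6 kept genes listed under polyol and glucuronate pathways, HK2 was the only one past 1.5. HK2 is a hexokinase, a kind of enzyme that the list holds beside those of these pathways. Its signal was 295.7 at 18 h, against 1030 at 0 h, a ratio of −1.80. None of 13 aldehyde dehydrogenases was past 1.5, and the largest ratios were −1.07 for ALDH1B1 and −1.01 for ALDH18A1. On another kept probe set, ALDH1B1 had −0.13 and ALDH18A1 −0.69. None of 17 genes of steroid, prostaglandin and retinoid metabolism was past 1.5 either, with RDH13, a retinol dehydrogenase, at −1.38 and PTGES2, a prostaglandin E synthase, at −1.21. At 18 h, 11 of these 17 were below 0 and 6 above, the highest at 1.01. Of 8 kept housekeeping genes none was past 1.5, with GAPDH at −0.20, ACTB at −0.55, HPRT1 at −0.68 and TBP at −0.56.

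**Figure D4:**
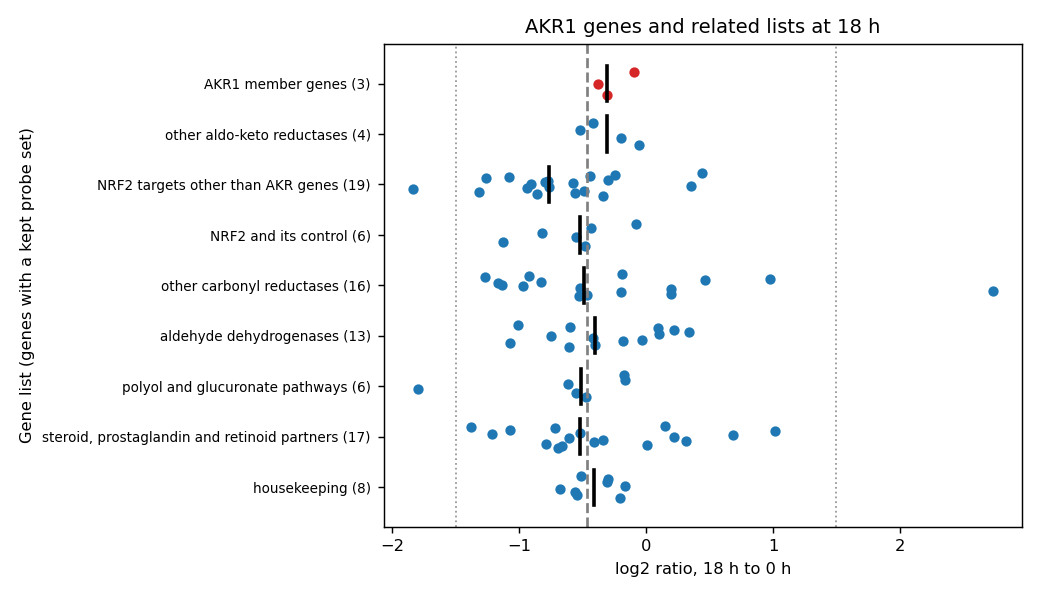
Log2 ratio of signal at 18 h to 0 h (x axis) for the AKR1 genes and 8 related lists (y axis, with the number of genes that had a kept probe set), 1 point per gene, a bar at each list's median, a dashed line at −0.47, the all-gene median, and dotted lines at 1.5 and −1.5. The 3 AKR1 genes lie right of the dashed line, the NRF2 targets have the lowest median, −0.76, and DHRS2 is the point farthest right.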

How the data were processed

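The values are MAS5 signal intensities that the authors deposited on a linear scale, with a value for every probe set on each array. They were made in Affymetrix Expression Console from biotin-labelled cRNA on GeneChip Human Genome U133 Plus arrays. The sources used here give neither its version nor the scaling target. Of 54675 probe sets, 62 controls were left out. Of the other 54613, the platform annotation of GEO gave 1 gene symbol to 41091, several to 1801 and none to 11721. Symbols were updated by gene ID through RefSeq, and a member had to match a whole symbol. A gene was represented by its brightest kept probe set with that symbol alone. Log2 ratios to 0 h carry no pseudocount. Since each time has 1 array, nothing was tested, and precision is limited by the number of arrays.

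Named are all members with every probe set, the 3 genes nearest to each member, the genes of each list past 1.5 at 18 h or otherwise the 2 with the largest ratios, and GAPDH and ACTB. Members and lists were chosen with earlier results of these data known. Alternatives were median centring, quantile normalization, division by a mean trimmed by 2% at each end, scaling to poly-A controls, adding 2.90 to every signal as a pseudocount (their 20th percentile), no filter, a filter of 10000 probe sets, thresholds of 1 and 2, averaging the kept probe sets of a gene, and no _x_at or _s_at probe sets. The ranges over the 4 arrays under these scalings were added after the data were seen. The calculation was checked on simulated data. Python 3.11.15, NumPy 2.4.6, pandas 2.3.3 and matplotlib 3.10.9 were used.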

Additional observations from a re-analysis of the deposited data

Results flagged for a closer look

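In 4 of 11 AKR1 probe sets, 2 of them kept, the log2 ratios at 6 and 18 h had opposite signs, as in 42.7% of all kept and 32.2% of all dim probe sets. None of these differences was tested, since there is 1 array a time. For AKR1C1, 204151_x_at had 0.15 at 6 h and −0.31 at 18 h, a difference (18 h minus 6 h) of −0.46, and 217626_at had 1.42 and −1.52, a difference of −2.93. Probe set 1555856_s_at had 0.43 and −2.36, a difference of −2.79. For AKR1C2, 211653_x_at had 0.21 and −0.38, a difference of −0.59. Probe sets 217626_at and 1555856_s_at were too dim to be kept. They had opposite signs under all 6 scalings, while 204151_x_at had them in 2 (as deposited and with the pseudocount) and 211653_x_at in 3 (these and the poly-A controls). The median of the kept probe sets moved the same way, with 0.12 at 6 h and −0.45 at 18 h, and its part in these differences was not tested.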

How the results depend on the processing

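AKR1C1, AKR1C2 and AKR1C3 were not past the threshold at any time under any alternative that left them a value. Without a filter 1 gene, AKR1B10, was past it at 12 h. The dim probe set of AKR1B10 was also past it at 18 h after median centring (1.84), division by the trimmed mean (1.90) and scaling to the poly-A controls (1.64). Quantile normalization and division by the trimmed mean moved the 18 h ratios by more than the SD between probe sets of a gene, to 0.17 and 0.21 for AKR1C1 and 0.51 and 0.42 for AKR1C3. Division by the trimmed mean moved that of AKR1C2 to 0.14. The median over the AKR1 genes at 18 h became 0.17 and 0.21 in these 2 settings. Of 165 ratios of AKR1 probe sets under other scalings or the pseudocount, 145 moved by less than that SD, 20 by more, and no ratio past 1.5 changed its sign. These are not 165 separate checks. Median centring, division by the trimmed mean and scaling to the poly-A controls each move all ratios of an array by the same amount. Of 81 kept genes in the related lists, 2 were below −1.5 and 1 was above 1.5 at 18 h, against 3.19% and 1.22% of all genes. After median centring, quantile normalization or division by the trimmed mean, or at a threshold of 2, 0 were lower. At a threshold of 1, 14 were lower, beside 1659 of all 10505 genes. Without a filter 8 were lower, but that count also draws on dim genes among the 108 listed, not on the 81 alone. A fall past the threshold was common among dim readings, with 16% of dim probe sets at 18 h. Above the threshold were 2 after quantile normalization, after division by the trimmed mean and without a filter, and 0 with the stricter filter. At a threshold of 1, 2 were higher, beside 331 of all genes. For the other alternatives no count over all genes is given here. AKR1C2 had no probe set left under the stricter filter, and AKR1C3 alone had one without the _x_at and _s_at kinds. The cause of these changes was not tested. No paired analysis was possible because each time has 1 array. Dim readings limit AKR1B10 and 5 other probe sets, whose ratios cannot be told from the spread at this brightness.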

Other observations

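Members of the family outside the examined genes were mostly dim. AKR1C4, a steroid reductase of the liver, had signals of 35.5, 33.6, 24.2 and 44.1 at 0, 6, 12 and 18 h. AKR1D1, a liver enzyme of bile acid synthesis, had 8.04, 4.20, 5.10 and 0.41, and the pseudogene AKR1C6P had 3.02, 27.0, 2.20 and 15.6. None of these 3 probe sets was kept. AKR1E2 had 1 kept probe set, with 39.8, 57.4, 47.4 and 38.3, and 2 dim ones whose log2 ratios at 18 h were −1.25 and 0.49.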
